A study of Mus musculus with 27 samples.

Results

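The genes described here encode the coats of lipid droplets, the lipases that empty them and the acyltransferases that fill them. They are 10 of the 53379 genes in the count table and were taken by name: the perilipins Plin2, Plin3, Plin4 and Plin5, the lipases Pnpla2, Pnpla3, Lipe and Lipa, and the acyltransferases Dgat1 and Dgat2. RNA of hepatic stellate cells (HSCs) of male Balb/c mice was sequenced in bulk in 27 libraries of 7 groups. Livers were injured with CCl4 (carbon tetrachloride), a toxin of hepatocytes, given into the abdomen in mineral oil (0.5 µL for each g of mouse). The healthy mice, aged 10 to 12 weeks, received no injection (n = 4). Acute groups, also aged 10 to 12 weeks, received 1 injection and are represented by 3 libraries at 24 h, 4 at 72 h and 4 at 7 d. Chronic groups, given as aged 8 to 10 weeks, received 8 injections over 4 weeks and gave HSCs 24 h, 72 h or 14 d after the last of them (n = 4 each).

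All cells came from perfused livers, were sorted by ultraviolet positivity, a signal that rests on stored retinoid, and were not cultured. The gate thus selected cells by the content of the very droplets these genes serve, in every group alike. No group received mineral oil alone, so CCl4 and its oily vehicle cannot be told apart. Age and the chronic course cannot be told apart either. The study's methods call the repeats biological and separate experiments, and whether a library is 1 mouse is not stated.

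A lipid droplet is a core of neutral lipid under a shell of phospholipid and coat proteins. HSCs are known for droplets that hold retinyl esters beside triglyceride and cholesteryl ester, and for losing them when they turn into myofibroblasts. Perilipins coat the droplet and control the access of lipases. DGAT enzymes add the last acyl chain of a triglyceride, ATGL (encoded by Pnpla2) and hormone-sensitive lipase (encoded by Lipe) remove acyl chains in the cytosol, and lysosomal acid lipase (encoded by Lipa) does so in the lysosome.

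Total counts ranged from 6.31 M to 13.1 M per library, and 8 libraries were of lower depth (at most 7.58 M against at least 10.8 M in the rest). These were every chronic 14 d library and replicates 1 and 2 of the other chronic groups. All 11 stellate cell markers were detected in every library, with summed levels from 6495 to 23306 CPM (counts scaled to a common library total). RNA of other cells varied between groups. The summed level of 12 hepatocyte markers ran from 659 to 4728 CPM in healthy, from 61.9 to 295 CPM in acute 24 h and from 2313 to 10542 CPM in chronic 14 d libraries. That of 13 macrophage markers ran from 180 to 738 CPM in healthy and from 4295 to 11082 CPM in acute 7 d libraries. Of 4 adipocyte markers, Retn had no count in any library, and their sum never passed 2.10 CPM. In bulk RNA, fewer cells of a type and less RNA per cell cannot be told apart.

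Transcripts of 9 of the 10 genes passed the filter on low counts and were tested, and Plin4 did not pass. Per kb of exon, Plin2 led in healthy HSCs with 76.1 ± 8.1 CPM per kb (SD, n = 4). Plin3 followed with 30.5 ± 4.9, Lipa with 28.7 ± 3.5 and Pnpla2 with 20.8 ± 2.8 CPM per kb. The levels of Plin3 and Lipa lay within their SDs of each other. Lengths were those of all annotated exons of a gene merged, not of the transcripts present, and the order depends on them. In CPM alone, Lipa had a mean of 195 and Plin3 of 116. Dgat2 had 12.2 ± 6.4, Dgat1 4.33 ± 1.14, Pnpla3 2.10 ± 0.60, Lipe 1.84 ± 0.30 and Plin5 1.33 ± 1.17 CPM per kb, and the last 3 of these lay within their SDs of each other. Between the lowest and the highest group mean, Dgat2 spanned 16.7-fold, Plin5 6.90-fold, Plin2 4.14-fold and Dgat1 only 1.19-fold.

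Against healthy HSCs, 3 of the 9 tested genes were called at an adjusted p below 0.05 (edgeR) in acute 24 h, where 33.7% of all tested genes were called, 15.5% higher and 18.1% lower. Plin2 and Lipe rose and Dgat2 fell. In acute 72 h, 1 was called (Pnpla3, lower) beside 21.9% of all genes (13.1% higher, 8.81% lower). In acute 7 d, 2 were called (Lipa and Plin3, higher) beside 23.7% (13.1% higher, 10.6% lower). Chronic 24 h had 3 called (Lipa and Lipe higher, Pnpla3 lower) beside 31% of all genes (17.1% higher, 14% lower). In chronic 72 h none was called by edgeR beside 20% of all genes (11% higher, 9% lower), 1 had an unadjusted p below 0.05, and the Wald test of DESeq2 called 1. In chronic 14 d, 1 was called (Dgat2, higher) beside 8.61% (5.12% higher, 3.49% lower). These shares of called members lay near or below those of all genes and are no result about the list. All 6 comparisons share the 4 healthy libraries.

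**Figure D1:**
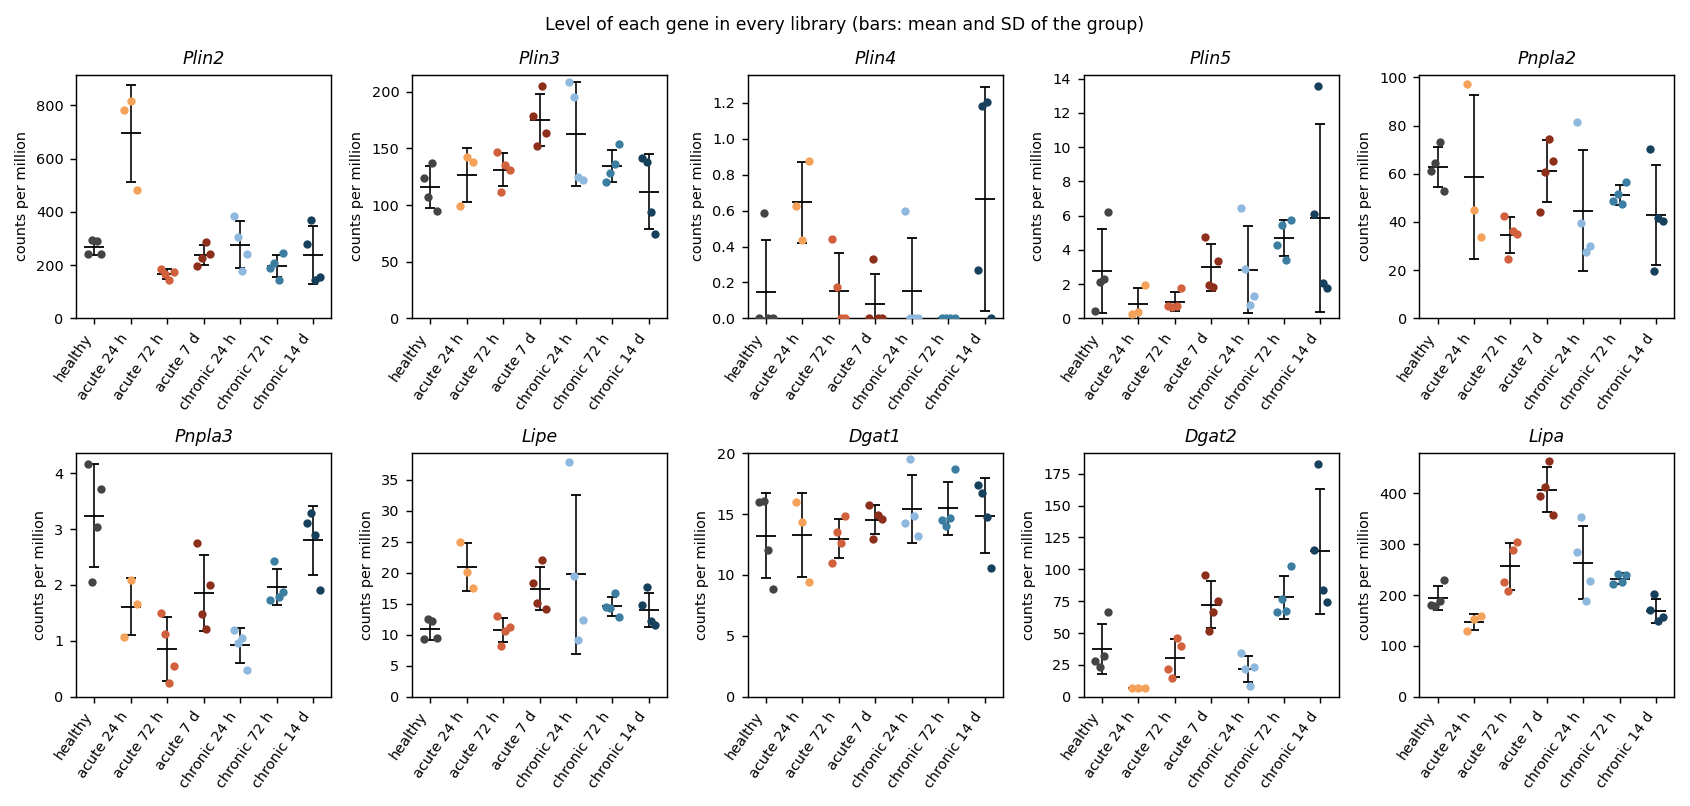
Level of each of the 10 genes in CPM (vertical axes, linear, from 0) in the 27 libraries by group (horizontal axes); points are libraries, bars the group mean and SD. The 3 acute 24 h libraries stand above all others in Plin2 and below all others in Dgat2, Lipa is highest in acute 7 d, and the axis of Plin4 ends below 2 CPM.

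Plin2 and Lipe, the pair that rose in acute 24 h, share a motif within their promoter windows, which are shown for that reason. Promoter sequences of 8 of the 10 genes were matched in the RefSeq table for GRCm38.p6, and those of Dgat1 and Dgat2 were not analysed here. Each line runs 5′ to 3′ from 250 bases before the start of transcription through its first 10 bases. The capitals mark CACGTG, the E-box core that basic helix-loop-helix factors are known to bind. The sequences are those of the reference genome, not of Balb/c. Plin2 lies at chr4:86670050-86670309 and Lipe at chr7:25395978-25396237, both on the minus strand. The Lipe window lies within the annotated gene, which spans chr7:25379527-25398710, so it belongs to a start downstream of the gene's outermost one.
Plin2: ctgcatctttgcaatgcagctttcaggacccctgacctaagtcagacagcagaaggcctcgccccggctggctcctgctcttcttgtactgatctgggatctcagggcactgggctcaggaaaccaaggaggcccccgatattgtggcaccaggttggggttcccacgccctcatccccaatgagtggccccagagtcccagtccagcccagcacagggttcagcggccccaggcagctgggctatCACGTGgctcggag
Lipe: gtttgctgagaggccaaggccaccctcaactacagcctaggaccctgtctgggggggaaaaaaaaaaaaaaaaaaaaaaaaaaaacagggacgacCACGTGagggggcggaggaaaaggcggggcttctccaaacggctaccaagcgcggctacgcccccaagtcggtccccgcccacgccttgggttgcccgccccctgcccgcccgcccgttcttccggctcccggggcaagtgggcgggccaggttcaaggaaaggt

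In Plin2 the motif begins 4 bases before the start of transcription and spans it, and in Lipe it begins 155 bases before it. Of 32851 promoter windows of 300 bases (250 before the start and 50 after), 7.15% hold CACGTG, which reads the same on both strands. Among the 10 windows of the 8 genes, 2 held it, those of Plin2 and of Lipe. It was singled out after the data had been seen, as 1 of 7 motifs searched on both strands. AGGTCA, a core of nuclear receptor sites, stood in 16.3% of all windows and in those of Plin2 and Plin5. TGANTCA, the AP-1 site, stood in 7.81% of all and in that of Plin5, TGACGTCA, the cyclic AMP response element, in 1.79% and in that of Pnpla3, and TATAAA in 13.6% and in that of Lipa. CCAAT stood in 37.4% of all windows and in 6 of these 10, and GGGCGG in 35.7% of all and in 8 of these 10. A match of letters is not a measured binding site.

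Plin2 encodes the perilipin that coats droplets in most cells that are not adipocytes. Its gene lies at chr4:86648386-86670060. Healthy HSCs had 243, 295, 289 and 243 CPM, and acute 24 h HSCs had 783, 816 and 483 CPM. All 3 acute 24 h libraries lay above every healthy one, and above every other library of the series. The rise was 2.60-fold (log2 1.38 ± 0.28 SE, adjusted p = 0.000531) and was called under all 19 alternatives, with log2 values from 1.24 to 1.65.

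At 72 h after the same single injection, Plin2 stood at 187, 166, 143 and 175 CPM, below all healthy libraries. This difference (log2 -0.67 ± 0.26) had an adjusted p of 0.0683 and was not called in the fit of all groups, whereas a fit of those 2 groups alone gave an adjusted p of 0.01. At 7 d the levels of 195, 225, 287 and 242 CPM overlapped those of healthy HSCs. Compared with acute 24 h, they were 2.93-fold lower (log2 -1.55 ± 0.28, adjusted p = 0.000137). In that comparison 3 of the 9 genes were called, 2 of them higher (Lipa and Dgat2), beside 39.9% of all genes (22.6% higher, 17.4% lower).

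After the chronic course the peak at 24 h was not seen. Chronic 24 h libraries had 384, 304, 178 and 243 CPM of Plin2, on both sides of the healthy levels, and chronic 72 h libraries had 188, 209, 144 and 245 CPM. Chronic 14 d libraries had 281, 370, 145 and 154 CPM, again on both sides. None of the 3 groups differed from healthy at an adjusted p below 0.05, and the log2 difference of chronic 24 h had a 95% interval from -0.49 to 0.59. Its sign turned to -0.33 in the libraries of higher depth alone and to -0.15 without chronic 24 h replicate 1. At 24 h, chronic HSCs had 2.51-fold less Plin2 than acute ones (log2 -1.33 ± 0.28, adjusted p = 0.00148). That test compares the levels of both courses directly, and the courses also differ in age and in depth. It called 3 of the 9 genes (Lipa and Dgat2 higher) beside 21.3% of all genes (14% higher, 7.32% lower).

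Plin3 encodes a perilipin that moves between the cytosol and small new droplets. Its levels were 124, 107, 137 and 94.8 CPM in healthy and 179, 152, 205 and 163 CPM in acute 7 d libraries. The groups did not overlap, and the rise was 1.51-fold (log2 0.60 ± 0.20, adjusted p = 0.0347). The call was lost without any of healthy replicates 1, 2 and 4 and acute 7 d replicates 1 and 3, with log2 values from 0.51 to 0.69 over all single omissions. In the other groups the means lay between 112 CPM (chronic 14 d) and 163 CPM (chronic 24 h), and no difference from healthy was called.

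Plin5 encodes the perilipin that ties droplets to mitochondria in cells that burn fat, hepatocytes among them. It was sparse, with 3 to 103 counts per library. Acute 72 h libraries had 0.709, 0.693, 0.732 and 1.78 CPM and chronic 72 h libraries 4.27, 5.43, 3.42 and 5.72 CPM. The chronic libraries lay above all acute ones, by 4.74-fold (log2 2.25 ± 0.77, adjusted p = 0.0496), in a comparison that called 2 of the 9 genes, both higher, beside 14.9% of all genes (7.12% higher, 7.8% lower). This call stood at the edge of the threshold, and 7 of 8 single omissions ended it. The highest level of Plin5, 13.6 CPM, was that of chronic 14 d replicate 2, which also had the highest sum of hepatocyte markers. With hepatocyte and macrophage marker levels as terms the log2 difference was 0.50 (adjusted p = 0.71). No difference from healthy was called.

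Plin4, the perilipin with a long repeated helix, which adipocytes are known for, was nearly absent. It had 64 counts in all 27 libraries together, none in 16 of them and at most 10 in any. The 3 acute 24 h libraries had 7, 5 and 10 counts, and chronic 14 d libraries 2, 9, 10 and 0. Healthy libraries had 0, 6, 0 and 0 counts, and all 4 chronic 72 h libraries had 0. The filter on low counts left Plin4 out of the tests, and a count of 0 does not show that the gene was silent. Its exons share 17 bases with Hdgfl2 on the opposite strand.

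Among the 4 perilipins, Plin2 made up 70.5% ± 2.8 of the summed CPM per kb in healthy HSCs (SD, n = 4). Its share was 84.7% ± 5.5 in acute 24 h (n = 3), with 89.4%, 86.0% and 78.6% in the single libraries. It was 57.6% ± 3.4 in acute 72 h and 58.5% ± 3.8 in acute 7 d. Every acute 24 h library lay above the healthy range of 67.8% to 74.1%, and every acute 72 h, acute 7 d, chronic 24 h and chronic 72 h library below it. Chronic 14 d libraries, with 66.7% ± 4.1, overlapped it. Ratios of genes within a library do not depend on how libraries are scaled. These ratios and the following ones were chosen after the values had been seen and are given without a test.

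**Figure D2:**
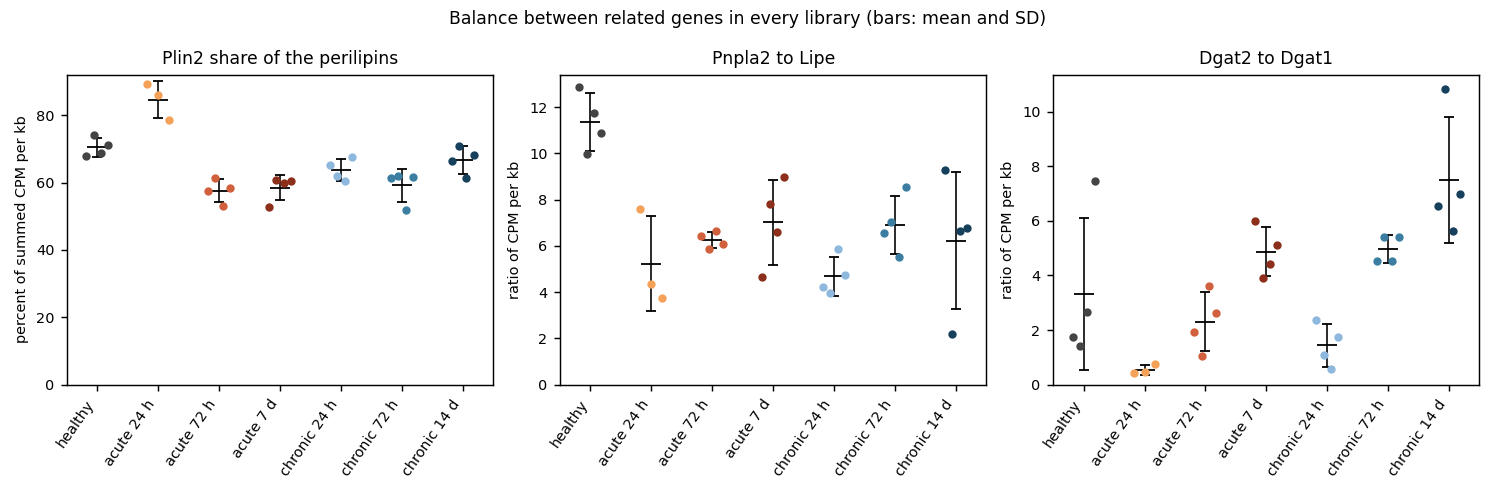
Balance between related genes in each library by group: Plin2 as a percentage of the summed CPM per kb of the 4 perilipins (left), and the ratio in CPM per kb of Pnpla2 to Lipe (middle) and of Dgat2 to Dgat1 (right); points are libraries, bars the mean and SD. Every injured library lies below the healthy ones in the Pnpla2 to Lipe ratio, which was 9.97 to 12.9 in healthy HSCs.

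Pnpla2 encodes ATGL, the enzyme that takes the first acyl chain off a triglyceride. Its difference from healthy was not called in any of the 6 groups. Healthy HSCs had 61.1, 64.4, 73.1 and 52.7 CPM. Acute 72 h HSCs had 42.6, 24.7, 36.3 and 35.2 CPM, all below the healthy ones. The log2 difference was -0.86 ± 0.35 (adjusted p = 0.0794), and DESeq2, the fit of those groups alone, the replicate block and the libraries of higher depth each called it, with adjusted p from 0.014 to 0.047. Acute 24 h libraries spread from 33.8 to 97.3 CPM and chronic 24 h libraries from 27.6 to 81.5 CPM, so that neither 24 h group was set apart from healthy.

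Lipe encodes hormone-sensitive lipase, which cleaves diglycerides, cholesteryl esters and retinyl esters. Healthy HSCs had 9.25, 12.6, 12.1 and 9.45 CPM, and acute 24 h HSCs had 25.0, 20.1 and 17.5 CPM. The groups did not overlap, and the rise was 1.92-fold (log2 0.94 ± 0.31, adjusted p = 0.0204). It missed the threshold without healthy replicate 1 (log2 0.87, adjusted p = 0.052) and without acute 24 h replicate 1 (log2 0.79, adjusted p = 0.098). At 72 h Lipe stood at 12.9, 8.23, 10.6 and 11.2 CPM. Chronic 24 h libraries had 37.8, 19.5, 9.21 and 12.4 CPM, a 1.81-fold rise by the mean (log2 0.85 ± 0.29, adjusted p = 0.0281) that rested on the 2 libraries of lower depth. Without replicate 1 the log2 difference was 0.33 (adjusted p = 0.29), and among the libraries of higher depth it was 0.01. Exons of Lipe share 918 bases with 4732471J01Rik on the opposite strand, and whether the counts used strand is not stated. That gene had at most 17 counts in a library (0 to 2.43 CPM).

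The balance of Pnpla2 and Lipe was lower in every injured library than in any healthy one. In CPM per kb, Pnpla2 exceeded Lipe 11.4-fold ± 1.2 in healthy HSCs (SD, n = 4). The ratio was 5.23 ± 2.05 in acute 24 h (n = 3), 4.69 ± 0.84 in chronic 24 h (n = 4) and 6.25 ± 0.35 in acute 72 h (n = 4). It was 7.02 ± 1.84 in acute 7 d, 6.92 ± 1.26 in chronic 72 h and 6.23 ± 2.96 in chronic 14 d. No library of an injured group reached the lowest healthy ratio of 9.97, the nearest being chronic 14 d replicate 1 with 9.30.

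Pnpla3, a relative of ATGL known to hydrolyse retinyl esters in HSCs, was sparse (3 to 46 counts per library). Healthy HSCs had 4.17, 2.05, 3.03 and 3.73 CPM. Acute 72 h HSCs had 1.51, 1.13, 0.244 and 0.542 CPM, and chronic 24 h HSCs had 1.20, 0.961, 1.05 and 0.480 CPM. Both groups lay below every healthy library. The fall was 3.78-fold in acute 72 h (log2 -1.92 ± 0.42, adjusted p = 0.002) and 3.54-fold in chronic 24 h (log2 -1.82 ± 0.43, adjusted p = 0.00221), and both were called under all 20 alternatives.

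In acute 24 h, Pnpla3 stood at 1.07, 2.08 and 1.67 CPM and its difference was not called (log2 -1.01 ± 0.45, adjusted p = 0.0858). The difference between both 24 h groups was not called either (adjusted p = 0.221, 95% interval of the log2 difference -1.76 to 0.13). At 14 d after the chronic course Pnpla3 had 3.11, 3.29, 2.89 and 1.91 CPM, above every chronic 24 h library. That was a 3.05-fold rise over chronic 24 h (log2 1.61 ± 0.43, adjusted p = 0.00896), called under all 19 alternatives. The comparison called 3 of the 9 genes (Pnpla3 and Dgat2 higher, Lipa lower) beside 23% of all genes (10.1% higher, 12.9% lower). Exons of Pnpla3 share 105 bases with Gm49513 on the same strand.

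Lipa encodes lysosomal acid lipase, which digests triglycerides and cholesteryl esters delivered to lysosomes. Healthy HSCs had 181, 179, 189 and 230 CPM, and acute 7 d HSCs had 395, 413, 463 and 358 CPM. Every acute 7 d library stood above every healthy one, by 2.09-fold (log2 1.07 ± 0.17, adjusted p = 5.93e-05). In acute 24 h the levels of 130, 154 and 159 CPM lay below all healthy ones, without a call (log2 -0.40 ± 0.18, adjusted p = 0.0907). From acute 24 h to acute 7 d Lipa rose 2.76-fold (log2 1.47 ± 0.19, adjusted p = 1.97e-06).

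After the chronic course, Lipa stood at 285, 353, 189 and 228 CPM at 24 h, 1.36-fold above healthy (log2 0.44 ± 0.16, adjusted p = 0.0455). This call was lost in 13 of 20 alternatives, among them the libraries of higher depth alone (log2 0.11) and 5 single omissions. Without chronic 24 h replicate 2 the log2 difference was 0.27. By 14 d the levels were 170, 202, 149 and 156 CPM, 1.56-fold below chronic 24 h (log2 -0.64 ± 0.17, adjusted p = 0.00697). This fall lost its call in 2 of 19 alternatives, neither of them a single omission. Every chronic 14 d library was of lower depth, against 2 of the 4 chronic 24 h libraries. At 24 h chronic HSCs had 1.79-fold more Lipa than acute ones (log2 0.84 ± 0.18, adjusted p = 0.00179), and no library of one group reached the other. In the libraries of higher depth that difference was 0.47 (adjusted p = 0.098).

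Macrophage markers were also highest where Lipa was highest. Lyz2, the macrophage lysozyme, went from a mean of 59.3 CPM in healthy to 5405 CPM in acute 7 d HSCs. Csf1r, the receptor of macrophage colony-stimulating factor, went from 42.7 to 310 CPM. Lyz2 alone was thus the larger part of the macrophage sum in acute 7 d, whose median was 6988 CPM. In acute 72 h libraries Lipa had 207 to 304 CPM, with a mean of 256 CPM against 195 CPM in healthy ones. This difference was not called (log2 0.40 ± 0.16, adjusted p = 0.0881), and the levels overlapped. The macrophage sums of these libraries, 337 to 701 CPM, lay within the healthy range of these sums. Chronic 14 d libraries had 149 to 202 CPM of Lipa at macrophage sums of 849 to 2291 CPM. With hepatocyte and macrophage marker levels as terms, the log2 difference of Lipa in acute 7 d was 0.46 (adjusted p = 0.32) and that of Plin3 was -0.08. Between the chronic and acute 24 h groups, that of Lipa turned to -0.01, and between acute 7 d and acute 24 h it was 0.29 (adjusted p = 0.61), while its fall from chronic 24 h to chronic 14 d kept its call (log2 -0.78). Macrophage sums of acute 7 d libraries did not overlap those of healthy or acute 24 h libraries, nor did those of both 24 h groups overlap. In these comparisons the model can hardly part marker level from group. The part of other cells in these values was not tested.

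Dgat2 encodes the acyltransferase that makes triglyceride from newly made fatty acids, and Dgat1 the unrelated enzyme that re-esterifies fatty acids from outside or from lipolysis. No difference in Dgat1 was called in any of the 10 comparisons. Its group means lay between 12.99 CPM (acute 72 h) and 15.5 CPM (chronic 72 h). The 95% intervals of its log2 differences from healthy all lay between -0.45 and 0.65.

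Dgat2 had a call in 6 of 10 comparisons and the widest span of group means among the 9 tested genes. Healthy HSCs had 28.4, 23.1, 32.2 and 66.4 CPM, and acute 24 h HSCs had 6.68, 6.68 and 7.11 CPM. Every acute 24 h library lay below every library of all other groups. The fall was 5.49-fold (log2 -2.46 ± 0.46, adjusted p = 0.00024). At 72 h the levels were 21.4, 14.5, 46.1 and 39.5 CPM, again among the healthy ones.

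At 7 d Dgat2 had 95.5, 51.3, 66.6 and 75.3 CPM, 10.6-fold above acute 24 h (log2 3.40 ± 0.48, adjusted p = 7.94e-06). Against healthy, that was not called (log2 0.94 ± 0.39, adjusted p = 0.0825). It was called without healthy replicate 4, the library with 66.4 CPM (log2 1.37, adjusted p = 0.014).

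In the chronic groups Dgat2 stood at 34.0, 21.4, 8.42 and 23.1 CPM at 24 h, at 66.4, 76.6, 67.1 and 102 CPM at 72 h, and at 115, 183, 83.8 and 74.5 CPM at 14 d. The libraries of these 3 times overlapped only between 72 h and 14 d. Chronic 72 h exceeded healthy by 2.08-fold without a call (log2 1.06 ± 0.39, adjusted p = 0.0579). Its lowest library (66.39 CPM) lay barely above the highest healthy one (66.38 CPM). Chronic 14 d exceeded chronic 24 h by 5.26-fold (log2 2.39 ± 0.41, adjusted p = 0.00017), called under all 19 alternatives, and healthy by 3.04-fold (log2 1.60 ± 0.39, adjusted p = 0.0118). The latter call was lost without chronic 14 d replicate 2 (log2 1.32) or healthy replicate 2 (log2 1.43), and with depth class as a term (log2 1.33), the depth of every chronic 14 d library being of the lower class.

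Chronic HSCs had more Dgat2 than acute ones at 24 h (3.17-fold, log2 1.67 ± 0.45, adjusted p = 0.00981) and at 72 h (2.57-fold, log2 1.36 ± 0.39, adjusted p = 0.0209). At both times no chronic library reached down to an acute one. The first difference was log2 1.18 (adjusted p = 0.14) among libraries of higher depth. The second missed the threshold without acute 72 h replicate 1 or 2 or chronic 72 h replicate 4, with log2 values of at least 1.13, with depth class as a term (1.24) and among libraries of higher depth (1.53).

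**Figure D3:**
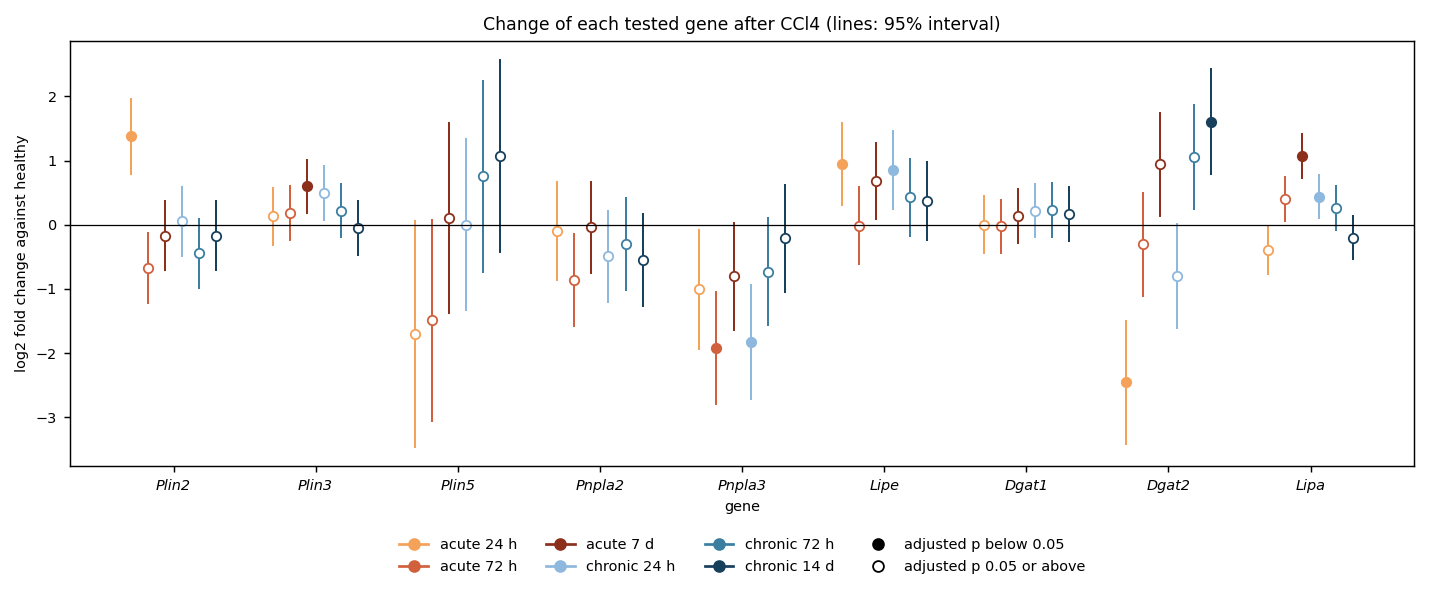
Log2 fold change against healthy (vertical axis) of the 9 tested genes (horizontal axis) in the 6 injured groups, with 95% intervals as lines; filled points have an adjusted p below 0.05 in edgeR. Plin2 and Dgat2 move in opposite directions in acute 24 h (1.38 and -2.46), Pnpla3 is lowest in acute 72 h and chronic 24 h, and Dgat1 stays near 0.

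The ratio of Dgat2 to Dgat1 in CPM per kb was 3.32 ± 2.80 in healthy HSCs (SD, n = 4), with 1.76, 1.42, 2.65 and 7.44 in the single libraries. It was 0.41, 0.46 and 0.75 in acute 24 h, so that Dgat1 exceeded Dgat2 there in all 3 libraries. The order was the same in chronic 24 h replicate 3, with 0.56, and in no other library. In chronic 14 d HSCs the ratio was 7.49 ± 2.30 (n = 4).

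Hepatocyte markers and Dgat2 were both lowest in acute 24 h, but their order differed among other groups. By medians, chronic 24 h exceeded healthy in hepatocyte sum (1625 against 1087 CPM) and had less Dgat2 (22.3 against 30.3 CPM). Chronic 72 h likewise exceeded chronic 14 d in that sum (4519 against 3455 CPM) and had less Dgat2 (71.8 against 99.4 CPM). Albumin (Alb) had a mean of 361 CPM in healthy, 31.1 CPM in acute 24 h and 917 CPM in chronic 14 d libraries. Healthy replicate 4 and chronic 14 d replicate 2, each the library richest in Dgat2 within its group, had hepatocyte marker sums of 4728 and 10542 CPM, the highest of their groups. With hepatocyte and macrophage marker levels as terms, the log2 difference of Dgat2 from healthy was -0.62 in acute 24 h (adjusted p = 0.4) and 0.75 in chronic 14 d (adjusted p = 0.23). Between acute 7 d and acute 24 h it was 0.79 (adjusted p = 0.51), between chronic and acute 72 h 0.57 (adjusted p = 0.42), and between both 24 h groups it turned to -0.37. That of Dgat2 between chronic 14 d and chronic 24 h kept its call, with the lowest value over all alternatives at 1.74. In the same model Plin2 in acute 24 h and Pnpla3 in acute 72 h and chronic 24 h kept their calls. Hepatocyte sums of acute 24 h libraries did not overlap those of healthy, acute 7 d or chronic 24 h libraries. In these comparisons the model can hardly part marker level from group, and a lost call or turned sign does not show the source. Whether the Dgat2 RNA came from HSCs or from hepatocyte RNA in the sorted cells was not tested.

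**Figure D4:**
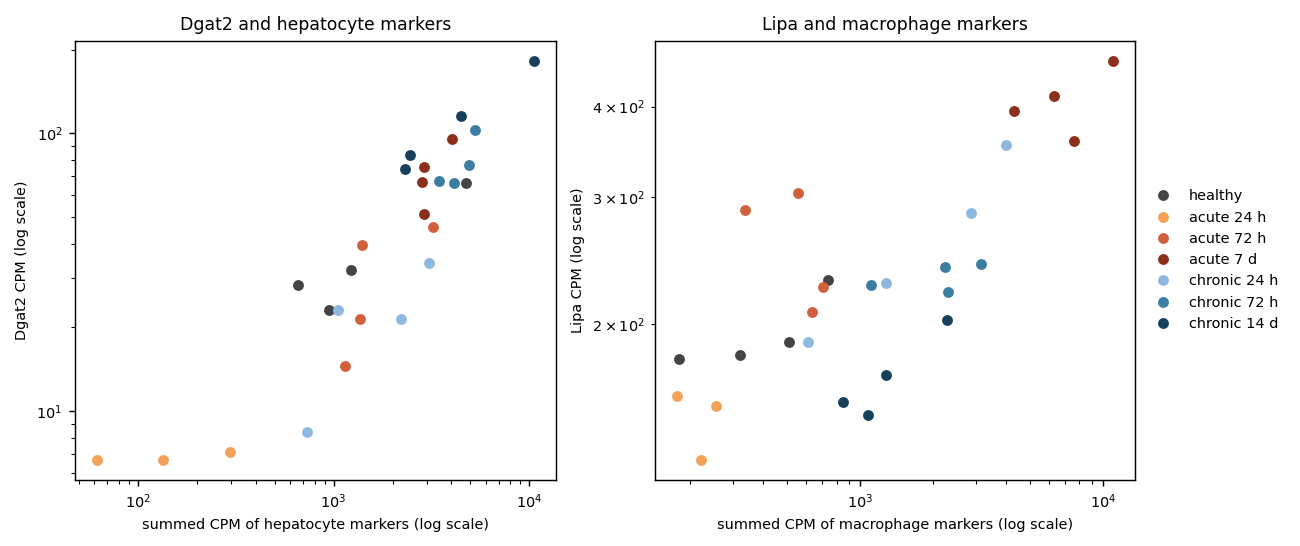
Dgat2 against the summed level of 12 hepatocyte markers (left) and Lipa against that of 13 macrophage markers (right), in CPM on log axes; points are the 27 libraries, coloured by group. Dgat2 is lowest in the 3 acute 24 h libraries, whose hepatocyte sums are 61.9 to 295 CPM, and Lipa is highest in acute 7 d libraries, whose macrophage sums are 4295 to 11082 CPM.

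Genes whose log2 CPM ran most like that of a member over the 27 libraries were taken as the 3 with the highest Pearson r among 12258 or 12259 genes with a mean of at least 5 CPM. For Dgat2 these were Mbl1 (r = 0.97), Mlxipl (r = 0.96) and Klkb1 (r = 0.96), and for Plin5 Fetub (r = 0.90), Hgfac (r = 0.89) and Mettl7b (r = 0.89). For Plin2 they were Endog, Tpst2 and Got1 (r from 0.87 to 0.89), for Lipa Fam234a, Mfsd12 and Pld3 (r from 0.83 to 0.88), and for Plin3 Pld3, Igsf8 and Edem2 (r from 0.80 to 0.83). Pld3, a lysosomal nuclease, was thus near both Lipa and Plin3. Pnpla3 ran with 9530026P05Rik, Cbx7 and Gm14964 (r from 0.82 to 0.84), Lipe with Tgm2, Adamts15 and Mindy1 (r from 0.74 to 0.75), Dgat1 with Slc36a1, Ccdc28b and Rpap2 (r from 0.68 to 0.69), and Pnpla2 with Hps6, Zfp553 and Zfp358 (r from 0.65 to 0.67). The points share libraries and group differences, so these values are descriptions only.

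The counts of called genes in the lists that follow stand beside the shares of all genes called, which were 33.7% in acute 24 h, 21.9% in acute 72 h, 23.7% in acute 7 d, 31% in chronic 24 h, 20% in chronic 72 h and 8.61% in chronic 14 d. Among other proteins of the droplet surface, 3 of 13 tested genes were higher and 3 lower in acute 24 h (median log2 change 0.06, all genes -0.12). Hilpda, an inhibitor of ATGL induced by hypoxia and fatty acids, rose from 39.9 ± 7.56 CPM (SD, n = 4) to 171 ± 51.7 CPM (n = 3; log2 2.10 ± 0.37 SE, adjusted p = 0.00011). Fitm2, an endoplasmic reticulum protein that helps droplets form, rose by log2 0.56 ± 0.19 (adjusted p = 0.023). Hsd17b13 and Mettl7b, droplet proteins of hepatocytes, had log2 changes of -3.74 and -3.67 and were lower, alongside the hepatocyte markers. At chronic 24 h 2 genes were higher and 1 lower. Abhd5, the coactivator of ATGL, rose from 26.9 ± 6.95 to 44.1 ± 4.83 CPM (adjusted p = 0.00063) and Hilpda rose to 95.01 ± 24.4 CPM (adjusted p = 0.0073), while G0s2, another inhibitor of ATGL, fell from 306 ± 61.4 to 186 ± 35.8 CPM (adjusted p = 0.012). Counts of higher and lower genes were 1 and 1 in acute 72 h, 1 and 0 in acute 7 d, 2 and 0 in chronic 72 h and 0 and 0 in chronic 14 d.

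Of 15 tested genes of glycerolipid synthesis, the steps ahead of DGAT, 4 were higher and 4 lower in acute 24 h, where 33.7% of all genes were called. The phosphatidate phosphatases parted there. Lpin3 rose from 4.05 ± 0.573 to 16.8 ± 4.46 CPM (log2 2.05 ± 0.21, adjusted p = 1.6e-07) and Lpin1 fell from 21.02 ± 5.03 to 5.33 ± 0.407 CPM (log2 -1.98 ± 0.31, adjusted p = 3.2e-05). Gpam, the mitochondrial glycerol-3-phosphate acyltransferase, and Acsl1, an acyl-CoA synthetase, were lower, with log2 changes of -1.90 and -2.34. Acsl1 had 76.4 ± 71.2 CPM in healthy and 15.1 ± 0.651 CPM in acute 24 h libraries, whose hepatocyte marker sums were 659 to 4728 and 61.9 to 295 CPM, and the part of hepatocyte RNA was not tested. Chronic 24 h had 3 higher, Lpin3 (log2 2.11), Lpin1 (log2 0.82) and Gpat4 (log2 0.51), and 1 lower, Acsl1. Counts of higher and lower genes were 1 and 0 in acute 72 h, 2 and 2 in acute 7 d, 1 and 1 in chronic 72 h and 1 and 2 in chronic 14 d.

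Of 12 other hydrolases of neutral lipid, 1 was higher and 4 were lower in acute 24 h (33.7% of all genes called). Ces1d, Ces3a and Lipc, lipases that hepatocytes are known to make, were lower, with log2 changes of -4.27, -4.23 and -3.58, and so was Pnpla7, a lysophospholipase, with -1.58. Chronic 24 h had 2 higher and 3 lower (31% of all genes called). Lpl, lipoprotein lipase, rose from 655 ± 42.1 to 2069 ± 301 CPM (adjusted p = 7.8e-07), and Nceh1, a cholesteryl ester hydrolase of macrophages, from 4.73 ± 2.80 to 29.0 ± 22.8 CPM. Mgll, which completes the breakdown of triglyceride that ATGL and hormone-sensitive lipase begin, fell from 86.5 ± 12.1 to 34.5 ± 4.49 CPM in acute 7 d (adjusted p = 0.0013). Counts of higher and lower genes were 1 and 2 in acute 72 h, 2 and 2 in acute 7 d, 4 and 1 in chronic 72 h and 3 and 0 in chronic 14 d.

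Of 4 tested acyltransferases of retinol and sterols, Soat1, which makes cholesteryl esters for droplets, rose from 19.4 ± 6.01 to 88.6 ± 25.4 CPM in chronic 24 h (log2 2.19 ± 0.39, adjusted p = 0.00015). It also rose in acute 7 d (log2 1.32) and chronic 72 h (log2 1.64), and it was the only one of the 4 called against healthy. Median macrophage sums were 2071 CPM in chronic 24 h, 6988 CPM in acute 7 d and 2264 CPM in chronic 72 h. They were 414 CPM in healthy and 1179 CPM in chronic 14 d, where Soat1 was not called. The part of macrophage RNA in Soat1 was not tested. Of the 12 genes of the lysosome, where the Lipa protein acts, 5 were higher in acute 7 d and none lower (median log2 change 0.62, all genes 0.01), led by Ctsd, Psap and Npc2, where 23.7% of all genes were called and 13.1% were higher. Macrophage marker sums were 4295 to 11082 CPM in these libraries against 180 to 738 CPM in healthy ones, and their part in the counts was not tested. In chronic 24 h 6 were higher and none lower, in acute 24 h 1 was higher (Scarb2) and 3 lower (Gaa among them), and in chronic 14 d none was called. Counts of higher and lower lysosomal genes were 1 and 1 in acute 72 h and 3 and 2 in chronic 72 h.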

How the data were processed

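HSC RNA was sequenced in 27 libraries. Per the labels and the study's methods, the authors aligned reads with STAR to GRCm38 and assembled genes with StringTie. They deposited raw counts, whole numbers per Ensembl gene. How the assembly became counts, the strand setting and the tool versions are not given in the sources used here. Symbols, positions and exon lengths came from GENCODE M21, which holds 53274 of 53379 IDs. Total counts were 6.31 M to 13.1 M per library, and no library was left out. Replicate pairs differed by 17 to 90.2 times the counting variance, so none was a duplicate.

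Counts were tested in R 4.3.3 with edgeR 4.0.16 (filterByExpr by group, 18758 genes, TMM scaling, robust quasi-likelihood, 1 model of all libraries, Benjamini-Hochberg adjustment over all genes). A gene was called at an adjusted p below 0.05. CPM used TMM library sizes. The procedure was tested on simulated data. Alternatives were DESeq2 1.42.0, other scalings, filters, thresholds and sample sets, a replicate block, depth class and marker levels as terms, and each library left out. Named were the 10 members, the 3 genes most correlated with each, and up to 4 called genes with the largest change per list. Some genes of the lists are not reported here by name. The members and lists were chosen with earlier results of these data known.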

Additional observations from a re-analysis of the deposited data

Results flagged for a closer look

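Single libraries stood apart from the other 3 of their group by Dixon's test in 5 of 59 groups of 4 examined, where chance gives about 1 in 20. Plin4 was found in 1 of 4 libraries in 3 groups, with 0.585 CPM in healthy replicate 2, 0.328 CPM in acute 7 d replicate 2 and 0.600 CPM in chronic 24 h replicate 1, which are 6, 4 and 4 counts. The other libraries of these 3 groups had 0 counts, so Dixon's ratio was 1 whatever the level. The rate of 1 in 20 does not hold for such counts. Plin5 had 1.78 CPM in acute 72 h replicate 4 against 0.693 to 0.732 CPM in the others. Dgat1 had 18.7 CPM in chronic 72 h replicate 4 against 14.0 to 14.7 CPM in the others.

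Levels differed between the acute and the chronic course at the same time after injection, by edgeR's test of the difference. At 24 h, the log2 difference of chronic from acute HSCs was -1.33 for Plin2 (adjusted p = 0.00148), 0.84 for Lipa (adjusted p = 0.00179) and 1.67 for Dgat2 (adjusted p = 0.00981). With marker levels as terms those of Lipa and Dgat2 turned sign (-0.0066 and -0.37). At 72 h it was 2.25 for Plin5 (adjusted p = 0.0496) and 1.36 for Dgat2 (adjusted p = 0.0209). The call of Plin5 was lost in 12 of 20 alternatives and that of Dgat2 in 6 of 20.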

How the results depend on the processing

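Of 21 calls of the members, 7 held under every alternative run and 14 with each library left out. The alternative of an adjusted p below 0.1 is a looser threshold on the same fit and could not lose a call. The minimum of 2-fold, also on the same fit, was bound to lose the 6 calls with a log2 difference below 1 in size. The tallies of lost calls include these. Each library left out in turn gave 2 to 4 calls in acute 24 h, 1 in acute 72 h, 1 to 2 in acute 7 d, 1 to 4 in chronic 24 h, 0 to 1 in chronic 72 h and 0 to 1 in chronic 14 d against healthy, and 0 to 2 in chronic against acute 72 h. The causes of the changes below were not tested.

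An adjusted p below 0.1 gave 5 calls in acute 24 h, 4 in acute 72 h, 4 in acute 7 d, 1 in chronic 72 h and 5 in acute 7 d against acute 24 h. Library size alone gave 2 in acute 72 h and 1 in chronic 72 h, and DESeq2 gave 3 and 1. A fit of the compared groups alone gave 3 in acute 72 h, 1 in chronic 24 h and 0 in chronic 14 d. A minimum of 2-fold gave 1 in acute 7 d and 1 in chronic 24 h. No filter gave 1 in chronic 24 h and 1 in chronic against acute 72 h. Depth class as a term gave 1 in chronic 24 h, 0 in chronic 14 d and 0 in chronic against acute 72 h. Libraries of higher depth gave 3 in acute 72 h and 0 in chronic against acute 72 h, and no such fit was possible for chronic 14 d, which has none. Marker levels as terms gave 3 in acute 72 h and 1 each in acute 7 d, chronic 24 h and chronic 72 h against healthy, in acute 7 d against acute 24 h and in chronic against acute 24 h and 72 h.

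With marker levels as terms, log2 differences turned for Lipa in acute 24 h (0.17), Plin3 (-0.078) and Lipe (-0.35) in acute 7 d, Plin3 (-0.67) and Plin5 (-2.90) in acute 7 d against acute 24 h, Dgat2 (-0.37) and Lipa (-0.0066) in chronic against acute 24 h, and Plin2 in chronic 24 h (-0.77). That of Plin2 in chronic 24 h, 0.05 and not called, also turned with depth class (-0.17), at higher depth (-0.33) and without chronic 24 h replicate 1 (-0.15), with a range up to 0.21 when others were left out.

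Correlations of same-numbered deviations ran from -0.17 to 0.17, and in none of 10 comparisons was every pair over 0.1. That check looks at equal numbers alone and cannot exclude other structure by replicate. Between chronic 14 d and chronic 24 h, replicates 1 and 2 of both groups correlated with each other at 0.05 to 0.15. Replicates 3 and 4 of both did so at 0.02 to 0.24, and the pairs across these sets lay from -0.20 to -0.04. The replicate block gave 3 calls in acute 72 h and lost Lipa in chronic 24 h (log2 0.43) and Plin5 in chronic against acute 72 h (log2 2.27). Scaling by library size moved the median of all genes by 0.10 in acute 72 h and acute 7 d, 0.11 in acute 7 d against acute 24 h, 0.12 in chronic 72 h and 0.17 in both chronic 14 d comparisons, and no member turned. The share of higher genes among those called went from 59.7% to 72.3% in acute 72 h, from 55.3% to 66.2% in acute 7 d, from 54.96% to 69.1% in chronic 72 h, from 59.4% to 83.0% in chronic 14 d and from 43.8% to 61.3% in chronic 14 d against chronic 24 h. Plin4, Plin5 and Pnpla3 are limited by their few counts.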

Other observations

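In chronic 24 h and chronic 14 d HSCs, replicates 1 and 2 had higher levels of Plin2, Plin3, Plin5, Lipe and Lipa than replicates 3 and 4. Plin2 was at 384 and 304 against 178 and 243 CPM in chronic 24 h, and at 281 and 370 against 145 and 154 CPM in chronic 14 d. Plin3 was at 209 and 195 against 124 and 122 CPM, and at 141 and 138 against 94.2 and 74.6 CPM. Plin5 was at 6.45 and 2.88 against 0.789 and 1.28 CPM, and at 6.08 and 13.6 against 2.04 and 1.76 CPM. Lipe was at 37.8 and 19.5 against 9.21 and 12.4 CPM, and at 14.7 and 17.6 against 12.1 and 11.6 CPM. Lipa was at 285 and 353 against 189 and 228 CPM, and at 170 and 202 against 149 and 156 CPM. In chronic 24 h these replicates were also those of lower depth, whereas depth did not part the chronic 14 d libraries, which were all of the lower class. Hepatocyte marker sums were 3083 and 2202 against 733 and 1049 CPM in chronic 24 h, and 4463 and 10542 against 2447 and 2313 CPM in chronic 14 d. Macrophage marker sums were 2869 and 3992 against 613 and 1274 CPM, and 1282 and 2291 against 1076 and 849 CPM. In chronic 72 h, where replicates 1 and 2 were also of lower depth, none of these genes parted that way. Plin3 was there at 120 and 129 against 137 and 154 CPM, and Plin2 at 188 and 209 against 144 and 245 CPM. Nor did Dgat1, Dgat2 and Pnpla3 part so in chronic 24 h, or Pnpla2 in chronic 14 d. The split was noticed in the values and was not tested.

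In chronic 14 d replicate 2 Pnpla2 had 19.7 CPM, its lowest level in the series, and Dgat2 183 CPM, its highest. The ratio of Pnpla2 to Lipe there was 2.18, against 6.66 to 9.30 in the other 3 libraries of the group.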
